A study of Mus musculus with 12 samples.

Results

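The genes described here are the Wnt ligands, their frizzled receptors (Fzd), and 2 families of secreted antagonists, the secreted frizzled-related proteins (Sfrp) and the Dickkopf proteins (Dkk). They were chosen by name: every gene of the deposited expression table whose symbol is Wnt, Fzd, Sfrp or Dkk followed by a digit. This gave 35 of 18050 genes, made up of 17 Wnt, 10 Fzd, 4 Sfrp and 4 Dkk genes. RNA was sequenced from the left ventricle of wild-type mice 7 days after surgery, in 6 libraries labelled sham and 6 labelled MI, read here as myocardial infarction, the death of heart muscle after loss of its blood supply. Both groups are wild type and carry no other agent or allele in the labels, which name no strain, age or sex and do not say whether infarct, border or remote tissue was taken. The submitters' notes part replicates 1 and 2 from replicates 3 to 6, and MI was compared with sham within each of these sets. Whether each library is a separate animal is not stated, so a p-value measures spread among libraries that may be technical.

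Wnt proteins are secreted, lipid-modified signals that bind the extracellular domain of frizzled receptors. With the co-receptors Lrp5 and Lrp6 this stops the breakdown of beta-catenin, which then acts with TCF/LEF factors in the nucleus, while other Wnt and frizzled pairs act through planar cell polarity or calcium. Secreted frizzled-related proteins carry a frizzled-like domain and can bind Wnts outside the cell, whereas the classical Dickkopf proteins bind Lrp5 and Lrp6. In the adult heart the pathway is known for its part in fibroblast activation and scar formation after injury.

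Expected counts summed to between 15541334 and 18602226 per library in replicates 1 and 2 and between 9140353 and 14410783 in replicates 3 to 6. The spread between replicates, as a biological coefficient of variation, came to 0.112 for sham 1 and 2 and 0.192 for MI 1 and 2, but 0.0293 in sham 3 to 6 and 0.0208 in MI 3 to 6, close to counting noise. A gene was therefore written as risen or fallen only where 2 edgeR quasi-likelihood tests, one on all 12 libraries and one with replicates 3 to 6 summed and counted once per group, both called it the same way at a Benjamini-Hochberg adjusted p under 0.05. Between sham and MI the summed CPM (counts scaled to a common library total with TMM factors) of 10 ventricular cardiomyocyte markers went from 112678-112780 to 6587-11131 in replicates 1 and 2 and from 102828-105130 to 32933-33604 in replicates 3 to 6. Summed fibroblast markers went from 6042-6643 to 55583-72596 and from 5696-5800 to 25358-25592, with 7 of 10 rising and 2 falling, and 9 of 10 activated fibroblast markers rose. Among all genes tested 28.1% rose and 29.8% fell. MI 3 to 6 also held 14 of 14 lung epithelium markers at a summed 205-209 CPM, against 1.79-3.04 in sham 3 to 6 and 16.7-29.3 in MI 1 and 2, where 5 of the 14 were at 0. The strain-dependent beta-globin copies Hbb-bs and Hbb-bt made up at most 0.194% of beta-globin counts in MI 3 to 6 and at least 99.88% in all other libraries, so within replicates 3 to 6 MI and this difference cannot be told apart. The part of these shifts in the results below was not tested, and in such bulk samples fewer cells of a type and less RNA per cell cannot be told apart.

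Of the 35 genes, 24 had enough counts to be tested both ways. In MI 12 of them rose, namely Wnt4, Wnt10b, Fzd1, Fzd2, Fzd5, Fzd7, Fzd8, Sfrp1, Sfrp2, Sfrp4, Dkk2 and Dkk3, while Fzd4 and Fzd9 fell (neither was called with scaling by library size alone or with limma on FPKM), 10 were not called and 11 were too low to test. Of all 13592 genes tested both ways, 28.1% were called higher and 29.8% lower. With scaling by library size alone, 16 members rose and 0 fell, against 46.1% and 18.2% of all genes, whose median moved from 0.01 to 0.42. At least 4-fold rises were found for 8 members, against 6.64% of all genes, and the median log2 fold change over the tested members was 0.81, against 0.01 over all genes. For 12 members the lowest MI library exceeded the highest sham library, which are the risen genes without Fzd8 and with Fzd3, and for 0 members the reverse held (21.3% and 21.4% of all genes). By role, 5 of 6 tested antagonists, 5 of 9 frizzleds and 2 of 9 Wnts rose. Whether those shares differ was not tested.

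In replicates 1 and 2 alone, 16 of 26 tested members were called higher and 2 lower (34.1% and 32.9% of all genes). In replicates 3 to 6 alone, 15 of 23 were called higher and 3 lower (42.2% and 39.5% of all genes). Of the 12 risen genes, 9 had the larger fold change in replicates 1 and 2, and Fzd2, Fzd5 and Fzd8 had the larger one in replicates 3 to 6. A difference in effect between the sets passed for 2 members, Sfrp2 and Wnt11, against 10.6% of all genes in either direction. For both the effect was larger in replicates 1 and 2 (3.86% of all genes).

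**Figure D1:**
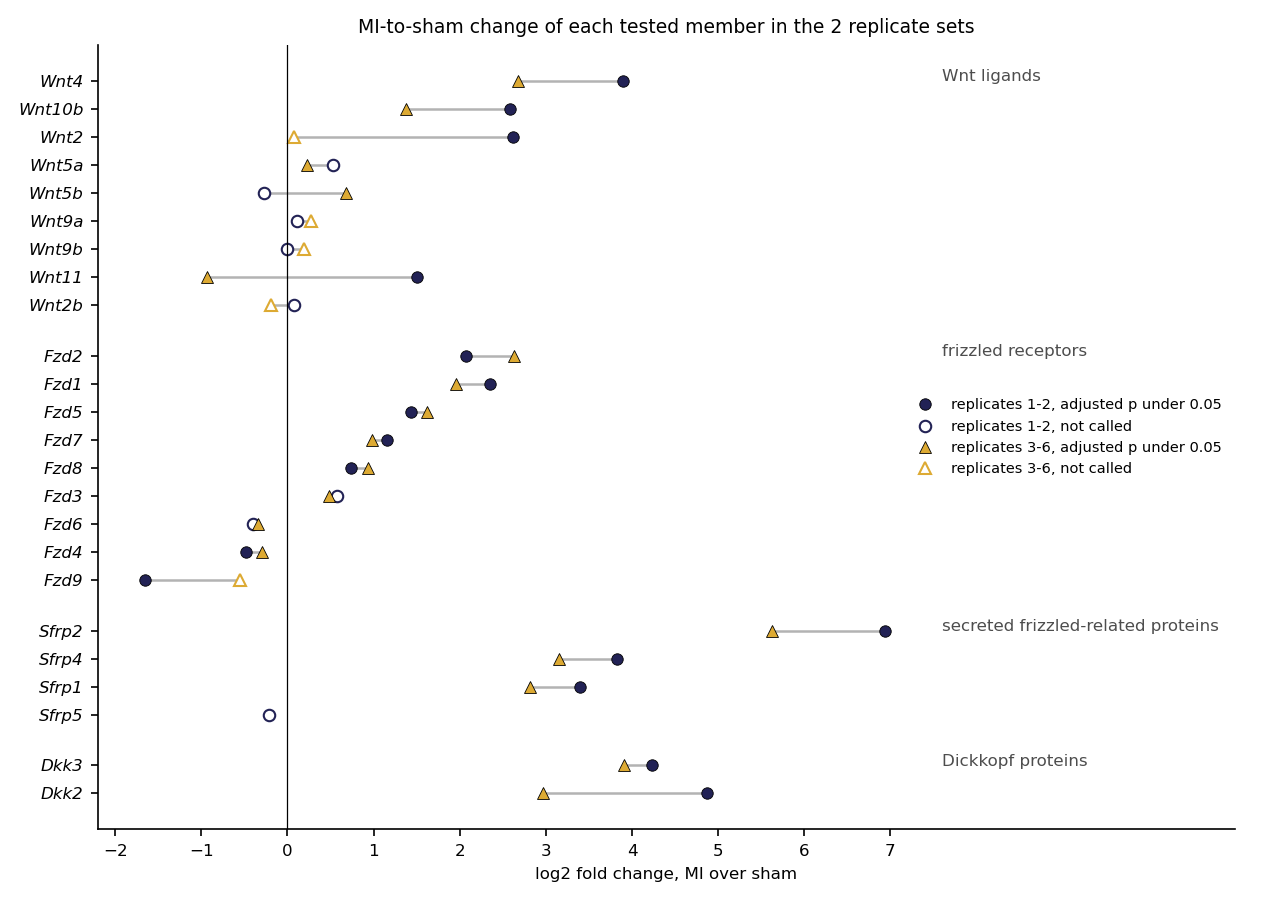
MI-to-sham log2 fold change (x axis) of the 24 tested members, grouped by role on the y axis, with circles for replicates 1-2 and triangles for replicates 3-6, filled where that set alone passed an adjusted p of 0.05. Sfrp2 stands furthest to the right in both sets at 6.94 and 5.63, and Wnt11 lies on opposite sides of 0 at 1.51 and -0.94.

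The 250 bases before the RefSeq start (GRCm38.p6) are shown for the gene of each role with the largest rise whose window touches no GENCODE exon: Wnt10b, Fzd1, Sfrp2 and Dkk2. They let a reader compare the upstream letters of genes that rose together. RefSeq spans of Sfrp2, Dkk2 and Wnt10b reach into or past the window through other transcript models. Windows were found for 25 of the 35 members, 28 windows in all. Capitals mark motifs found on either strand. Those searched were CTTTGA or CTTTGT for TCF/LEF factors, TGANTCA for AP-1 factors, CATTCC for TEAD factors, and TATAAA for the TATA box.
Sfrp2, chr3:83766071-83766320, plus strand: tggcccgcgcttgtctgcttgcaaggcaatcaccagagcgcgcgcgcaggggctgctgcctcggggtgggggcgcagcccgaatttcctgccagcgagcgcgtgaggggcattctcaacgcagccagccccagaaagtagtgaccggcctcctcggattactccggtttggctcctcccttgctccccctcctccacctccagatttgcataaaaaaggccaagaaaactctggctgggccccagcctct
Dkk2, chr3:132085042-132085291, plus strand: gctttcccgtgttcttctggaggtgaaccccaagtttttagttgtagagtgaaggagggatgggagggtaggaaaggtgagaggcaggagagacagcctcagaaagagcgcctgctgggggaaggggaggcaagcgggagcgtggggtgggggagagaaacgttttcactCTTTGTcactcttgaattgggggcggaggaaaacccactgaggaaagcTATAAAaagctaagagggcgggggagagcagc
Wnt10b, chr15:98778151-98778400, minus strand: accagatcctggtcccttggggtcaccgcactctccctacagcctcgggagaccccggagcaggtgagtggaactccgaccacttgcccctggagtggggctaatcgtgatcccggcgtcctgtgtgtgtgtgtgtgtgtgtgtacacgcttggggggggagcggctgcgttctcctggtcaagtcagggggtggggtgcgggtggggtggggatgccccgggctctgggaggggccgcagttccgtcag
Fzd1, chr5:4758217-4758466, minus strand: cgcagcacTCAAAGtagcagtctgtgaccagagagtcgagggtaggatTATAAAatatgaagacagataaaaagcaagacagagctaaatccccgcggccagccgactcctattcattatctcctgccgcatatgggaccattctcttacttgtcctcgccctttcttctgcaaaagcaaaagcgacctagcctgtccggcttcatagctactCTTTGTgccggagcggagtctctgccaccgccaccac
The Dkk2 window holds CTTTGT from 80 to 75 bases and TATAAA from 32 to 27 bases before the start. The Fzd1 window holds CTTTGA, read on the other strand as TCAAAG, 242 to 237 bases before the start, TATAAA at 202 to 197 and CTTTGT at 37 to 32. In the Sfrp2 and Wnt10b windows none of these letters occurred. Of 32536 RefSeq windows of this length, 13.9% held CTTTGA, 16.5% CTTTGT, 6.73% TGANTCA, 12.6% CATTCC and 12.3% TATAAA. Of the members' 28 windows, 4 held CTTTGA, 5 CTTTGT, 1 TGANTCA, 4 TATAAA and 0 CATTCC. The members' windows had a median GC content of 69.4% and a CpG observed-to-expected ratio of 0.76, against 52.4% and 0.38 over all windows.

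Among the secreted frizzled-related proteins Sfrp2 had the largest rise (chr3:83765750-83774314, Entrez 20319). It stood at 3.96 and 3.56 CPM in sham 1 and 2 and at 511 and 427 CPM in MI 1 and 2. Sham 3 to 6 held 5.38, 5.84, 8.13 and 5.67 CPM and MI 3 to 6 held 300, 307, 300 and 292 CPM. Every MI library was thus far above every sham library. The change over 12 libraries was 6.04 ± 0.25 on the log2 scale (SE; adjusted p = 1.23e-09, and 0.000642 with replicates 3 to 6 counted once, edgeR). It was larger in replicates 1 and 2, at 6.94, than in replicates 3 to 6, at 5.63, a difference of -1.38 (adjusted p = 3.98e-05 and 0.0325 in the 2 forms of the test). An antisense gene, Gm26771, overlaps 16.1% of its exon bases, and no source used here states whether counting was strand-specific.

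Sfrp1, the most abundant of this family in sham by TPM, the authors' length-scaled transcript abundance,, also rose in every library (chr8:23411383-23449632). Its sham levels were 29.5 and 34.1 CPM in replicates 1 and 2 and 41.9, 44.4, 39.0 and 43.0 CPM in replicates 3 to 6. Its MI levels were 294 and 383 CPM and 279, 284, 299 and 287 CPM. MI replicate 2 was the highest library, and the groups did not overlap. The change was 2.99 ± 0.12 on the log2 scale (SE; adjusted p = 1.38e-09, and 0.000795 with replicates 3 to 6 counted once).

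Sfrp4 was a low gene in sham, between 0.121 and 0.870 CPM over 6 libraries. In MI it stood at 10.1 and 7.35 CPM in replicates 1 and 2 and at 2.78, 4.31, 3.59 and 4.18 CPM in replicates 3 to 6, a change of 3.46 ± 0.32 on the log2 scale (SE; adjusted p = 9.96e-07 and 0.0016). Sfrp5, the remaining member, did not pass both tests (adjusted p = 0.0431 over 12 libraries and 0.366 with replicates 3 to 6 counted once). It had 41 counts in sham 3 to 6 and 1 count in MI 3 to 6, an MI-to-sham ratio of 0.0123 (exact 95% interval 0.000305 to 0.0727, counting error only). In replicates 1 and 2 it had 30 counts in sham and 42 in the deeper MI libraries, of which 39 were in MI 2, a scaled ratio of 0.879 (0.537 to 1.45). Sfrp5 was thus the tested antagonist that did not rise.

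The Dickkopf genes divided by abundance. Dkk3, a divergent Dickkopf protein that does not bind Lrp5 or Lrp6 as the classical ones do, stood at 12 and 13.3 CPM in sham 1 and 2 and at 6.2, 5.35, 6.57 and 7.48 CPM in sham 3 to 6. In MI it reached 280 and 201 CPM and 93.3, 93.2, 90.6 and 94.8 CPM. Its change was 4.01 ± 0.12 on the log2 scale (SE; adjusted p = 7.82e-11 and 0.000517), and the fitted rise was 18.8-fold in replicates 1 and 2 and 15-fold in replicates 3 to 6. Dkk2, a classical Lrp5 and Lrp6 ligand, had 4 counts in sham 1 and 2 against 197 in MI 1 and 2, and 6 against 94 in replicates 3 to 6. The count ratios, scaled to library size, were 30.9 (exact 95% interval 11.9 to 115) and 7.92 (3.51 to 22.1). Its change was 3.87 ± 0.49 on the log2 scale (SE; adjusted p = 1.44e-05 and 0.00266), so this rise was large but its size was poorly fixed. Dkk1 had 1 count in sham and 6 in MI over all libraries, and Dkk4 had 0 counts in 12 libraries, so neither was tested.

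**Figure D2:**
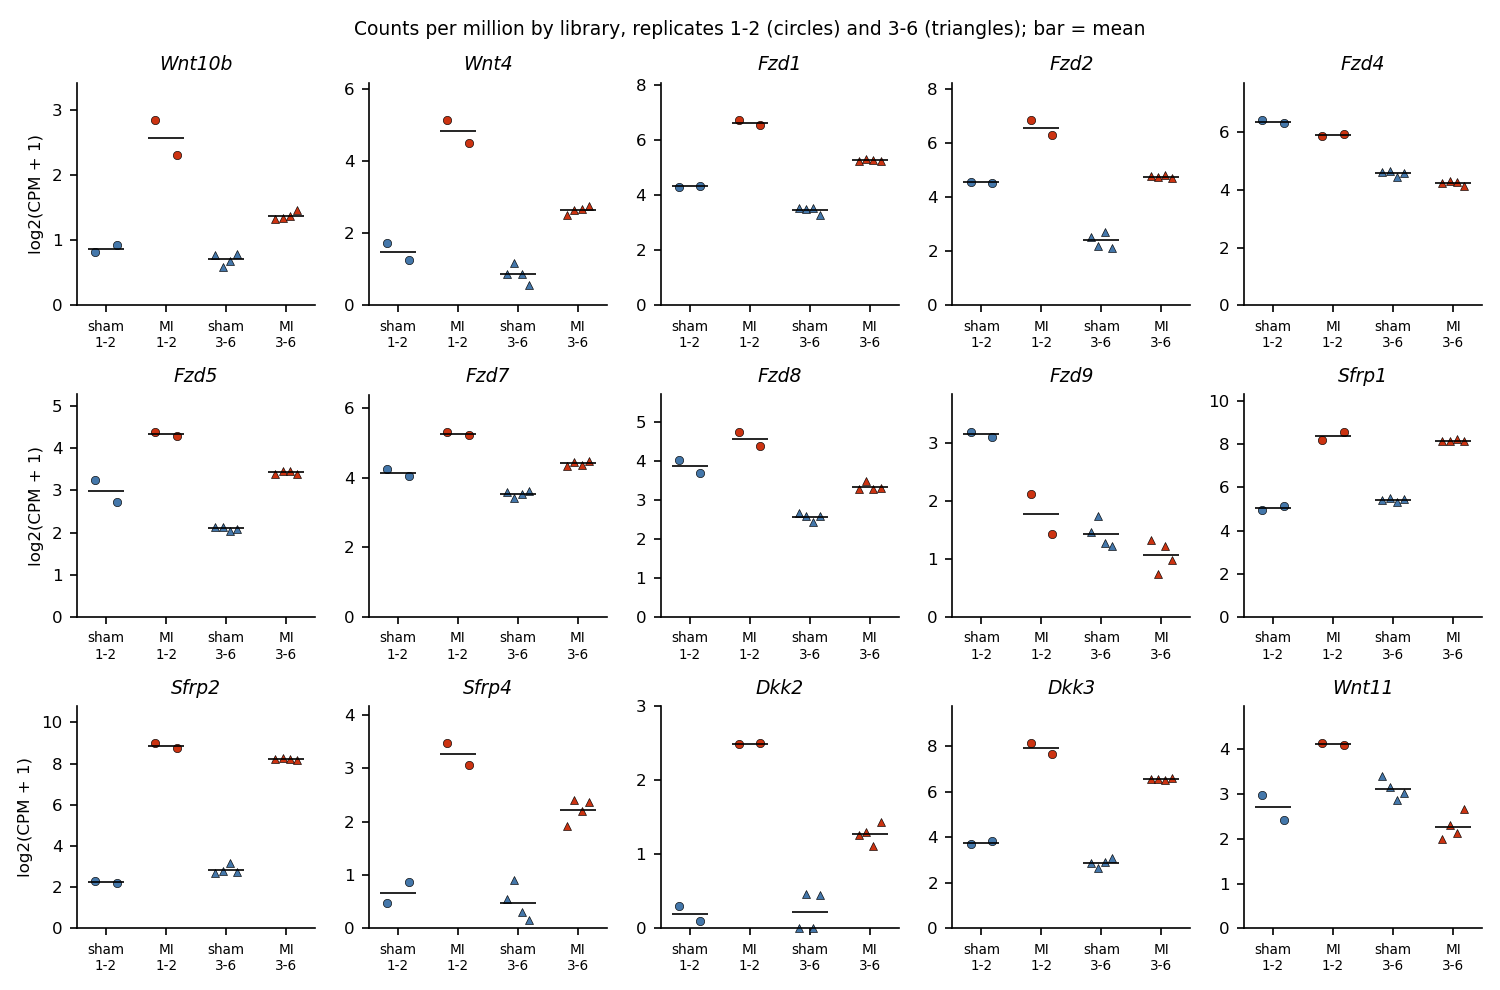
Level of 15 members in each library as log2(CPM + 1) on the y axis, in sham (blue) and MI (red), with circles for replicates 1-2, triangles for replicates 3-6 and a bar at each mean. The 14 called members and Wnt11 are shown. Sfrp2 rises from at most 8.13 CPM to at least 292 CPM, Fzd4 falls within each set at this TMM scaling, and Wnt11 rises in replicates 1-2 and falls in replicates 3-6.

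Of the Wnt ligands Wnt4 changed most. It is a Wnt known for kidney tubule and gonad development and acts through either branch of the pathway. Its sham levels were 2.28 and 1.41 CPM in replicates 1 and 2 and 0.819, 1.24, 0.837 and 0.483 CPM in replicates 3 to 6. Its MI levels were 34.2 and 21.7 CPM and 4.72, 5.23, 5.35 and 5.70 CPM. The groups did not overlap, and the change was 3.27 ± 0.27 on the log2 scale (SE; adjusted p = 4.39e-07 and 0.00168). The rise was 14.9-fold in replicates 1 and 2 and 6.38-fold in replicates 3 to 6, a difference that did not pass both forms of the test (adjusted p = 0.0287 and 0.217).

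Wnt10b, a ligand of the beta-catenin branch, also rose, from low levels. It stood at 0.761 and 0.889 CPM in sham 1 and 2 and between 0.497 and 0.724 CPM in sham 3 to 6. In MI it stood at 6.16 and 3.93 CPM and at 1.51, 1.54, 1.58 and 1.76 CPM. The change was 1.89 ± 0.26 on the log2 scale (SE; adjusted p = 2.66e-05 and 0.00783), with no overlap between groups.

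Wnt11, a ligand of the polarity branch with a role in heart development, moved in opposite directions in the 2 sets. In replicates 1 and 2 it went from 6.93 and 4.37 CPM in sham to 16.6 and 16.0 CPM in MI, a log2 fold change of 1.51 (adjusted p = 0.00279 within the set). In replicates 3 to 6 it went from 9.60, 7.96, 6.33 and 7.12 CPM to 2.96, 3.94, 3.41 and 5.33 CPM, a log2 fold change of -0.94 (adjusted p = 7.26e-06 within the set). The difference between sets was -2.51 (adjusted p = 1.60e-05 and 0.028), and over 12 libraries the gene was not called. Sham levels of the sets overlapped, so the sets parted in MI. Summed epicardium and mesothelium markers rose from 288-314 to 749-1501 CPM in replicates 1 and 2 and were 396-415 and 395-405 CPM in replicates 3 to 6, and their part in the Wnt11 values was not tested.

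The other measurable Wnts changed little or in 1 set. Wnt5a, a ligand of the polarity and calcium branch, was at 16.9 and 12.1 CPM in sham and 21.9 and 20.5 CPM in MI in replicates 1 and 2. It was at 9.60, 8.58, 8.37 and 10.3 CPM in sham 3 to 6 and 10.1, 9.96, 10.6 and 10.8 CPM in MI 3 to 6, so those groups overlapped. It passed over 12 libraries (log2 fold change 0.31, adjusted p = 0.0169) but not with replicates 3 to 6 counted once (adjusted p = 0.115).

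Its close relative Wnt5b was at 7.00 and 7.41 CPM in sham and 6.98 and 5.13 CPM in MI in replicates 1 and 2. In replicates 3 to 6 it was called, at 3.86, 4.97, 2.99 and 4.10 CPM in sham and 6.05, 6.27, 6.02 and 6.24 CPM in MI (log2 fold change 0.68, adjusted p = 9.31e-05 within the set). The difference between sets passed in 1 form of the test (adjusted p = 0.00716 and 0.237), and Wnt5b was not called over both sets. Wnt9a was level, at 11.4 and 9.86 against 13.4 and 9.90 CPM in replicates 1 and 2. Sham 3 to 6 held 5.74, 4.85, 4.78 and 6.15 CPM and MI 3 to 6 held 5.57, 6.58, 5.66 and 7.33 CPM (log2 fold change 0.19 ± 0.12 over 12 libraries, SE; adjusted p = 0.169).

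Wnt2, Wnt6 and Wnt16 were called higher in replicates 1 and 2 alone. Wnt2, a ligand also strongly expressed in lung, went from 0.381 and 0.222 to 1.68 and 2.13 CPM there (log2 fold change 2.62, adjusted p = 0.00435). In replicates 3 to 6 it was at 1.76, 1.74, 0.956 and 0.965 CPM in sham and 1.88, 1.11, 1.09 and 1.45 CPM in MI, with no call. Its difference between sets passed in 1 form of the test (adjusted p = 0.00148 and 0.0716). Wnt6 went from 0.533 and 0.222 to 1.35 and 1.71 CPM in replicates 1 and 2 (log2 fold change 1.99, adjusted p = 0.0178). For replicates 3 to 6 Wnt6 was at 0.351, 0.995, 0.717 and 0.603 CPM in sham and 0.605, 0.554, 0.608 and 0.545 CPM in MI.

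Wnt16 had 0 counts in sham 1 and 2 and 17 and 11 counts in MI 1 and 2, at least 5.86-fold higher against a floor of 3 counts over the group (adjusted p = 0.00889). Sham 3 to 6 had 3 counts and MI 3 to 6 had 20, a ratio of 3.37 (exact 95% interval 1.00 to 17.7). Wnt2b and Wnt9b lay between 0.609 and 1.97 CPM in all libraries and were not called. The 6 ligands Wnt1, Wnt3, Wnt3a, Wnt7a, Wnt7b and Wnt8b reached at most 8 counts in a library. In all, 8 of the 17 Wnts were too low to test both ways.

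Of 10 frizzled receptors 5 rose, 2 fell, 2 were not called and 1 was too low to test, while of all genes 28.1% rose and 29.8% fell. The 2 falls were not called with scaling by library size alone, where 46.1% of all genes rose and 18.2% fell. Fzd1 and Fzd2, which can pass Wnt signals to beta-catenin, rose most. Fzd1 was at 18.4 and 19.3 CPM in sham 1 and 2 and at 10.7, 10.2, 10.4 and 8.57 CPM in sham 3 to 6. In MI it was at 104 and 91.3 CPM and at 36.2, 38.8, 37.3 and 37.0 CPM. The groups did not overlap, and the change was 2.08 ± 0.09 on the log2 scale (SE; adjusted p = 2.38e-09 and 0.000789).

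Fzd2 was at 22.5 and 22.2 CPM in sham 1 and 2 and at 114 and 76.8 CPM in MI 1 and 2. It was at 4.80, 3.61, 5.62 and 3.38 CPM in sham 3 to 6 and at 26.8, 25.6, 27.1 and 25.0 CPM in MI 3 to 6. The change was 2.38 ± 0.14 on the log2 scale (SE; adjusted p = 2.53e-08 and 0.00116). The groups did not overlap, although sham 1 and 2, at up to 22.5 CPM, lay close to the 25.0 CPM of the lowest MI library.

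Fzd5, Fzd7 and Fzd8 rose by less. Fzd5 went from 8.53 and 5.63 to 20.1 and 18.6 CPM in replicates 1 and 2, and from 3.39, 3.36, 3.11 and 3.26 to 9.44, 10.1, 10.1 and 9.51 CPM in replicates 3 to 6 (log2 fold change 1.53 ± 0.10, SE; adjusted p = 8.09e-08 and 0.00274). An antisense gene, Gm38058, overlaps 17.8% of its exon bases. Fzd7 went from 17.8 and 15.6 to 39.0 and 36 CPM, and from 11.1, 9.70, 10.5 and 11.2 to 19.0, 21.0, 19.7 and 21.4 CPM (log2 fold change 1.02 ± 0.07, SE; adjusted p = 1.14e-07 and 0.00213). Fzd8 went from 15.1 and 11.9 to 25.8 and 19.7 CPM, and from 5.27, 4.97, 4.42 and 4.95 to 8.59, 10.2, 8.64 and 8.79 CPM (log2 fold change 0.83 ± 0.10, SE; adjusted p = 1.21e-05 and 0.0138). Fzd8 overlapped between groups over both sets, though not within either, and without sham 2 or without MI 1 it no longer passed (log2 fold changes 0.79 and 0.80).

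Fzd4 was the most abundant frizzled of sham 1 and 2 by TPM. It is a receptor of blood vessel endothelium, where it also binds the non-Wnt ligand norrin. It fell from 85.3 and 79.3 to 58.1 and 61.3 CPM in replicates 1 and 2, and from 23.6, 24.1, 21.0 and 22.9 to 18, 19.1, 18.7 and 16.6 CPM in replicates 3 to 6. The groups were apart within each set, and the change was -0.39 ± 0.06 on the log2 scale (SE; adjusted p = 5.74e-05 and 0.0153). The call was lost without any 1 of sham 1, sham 2, MI 1 or MI 2, and with scaling by library size alone the value was 0.02. Summed endothelium markers went from 1679-1935 to 877-974 CPM and from 3514-3613 to 2058-2086 CPM, and their part in the Fzd4 values was not tested.

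Fzd9 fell from 8.22 and 7.63 to 3.37 and 1.71 CPM in replicates 1 and 2. In replicates 3 to 6 it was at 1.76, 2.36, 1.43 and 1.33 CPM in sham and 1.51, 0.677, 1.34 and 0.969 CPM in MI, where the groups overlapped and the set alone did not pass (log2 fold change -0.56, adjusted p = 0.0737). Over 12 libraries the change was -1.06 ± 0.28 on the log2 scale (SE; adjusted p = 0.00462 and 0.0281). The call was lost without any 1 of the 4 libraries of replicates 1 and 2, with log2 fold changes between -1.10 and -0.81, and with library size alone, at -0.65.

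Fzd6, a receptor of the polarity branch, was at 30.2 and 28.3 CPM in sham and 26.1 and 18.9 CPM in MI in replicates 1 and 2. Sham 3 to 6 held 44.2, 49.4, 44.5 and 46.7 CPM and MI 3 to 6 held 35.6, 36.8, 34.9 and 33.9 CPM. It passed over 12 libraries (log2 fold change -0.38, but 0.02 with library size alone, adjusted p = 0.000424) but not with replicates 3 to 6 counted once (adjusted p = 0.0666). Fzd3 was at 2.66 and 1.70 CPM in sham and 3.61 and 3.01 CPM in MI in replicates 1 and 2, and between 1.81 and 2.98 CPM against 3.03 and 4.26 CPM in replicates 3 to 6. Its groups did not overlap over the 12 libraries, but it was not called (log2 fold change 0.49, adjusted p = 0.0189 and 0.178). Fzd10 had at most 2 counts in a library.

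Because TPM are scaled by transcript length, they allow levels of different members to be set side by side, and shares of the family total do not depend on how libraries are scaled. In sham, frizzleds made up most of the family's TPM, 61.8% ± 0.54 (SD, n = 2) in replicates 1 and 2 and 50.5% ± 0.48 (SD, n = 4) in replicates 3 to 6. In MI they made up 16.3% ± 0.86 and 13.0% ± 0.22. Antagonists went from 17.9% and 21.0% in sham 1 and 2 to 76.8% and 78.6% in MI 1 and 2, and from 27.6-30.7% to 82.5-83.1% in replicates 3 to 6. The make-up was thus turned over from receptors to antagonists in both sets, with no overlap between groups. Antagonists here are the Sfrp and Dkk members, with the divergent Dkk3 and without Frzb, which is described below. The Sfrp genes alone went from 14.1% to 63.3% in replicates 1 and 2 and from 25.4% to 73.4% in replicates 3 to 6 (means). No test was run on these shares.

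Sfrp2 alone made up 2.65% ± 0.05 of the family's TPM in sham 1 and 2 and 46.8% ± 1.27 in MI 1 and 2 (SD, n = 2), and 5.89% ± 1.34 and 50.7% ± 0.72 in replicates 3 to 6 (SD, n = 4). The Wnt share went from 18.7% ± 1.66 to 6.04% ± 0.40 and from 20.5% ± 1.67 to 4.15% ± 0.39. Summed antagonist TPM over summed frizzled TPM went from 0.31 to 4.78 in replicates 1 and 2 and from 0.57 to 6.37 in replicates 3 to 6. Summed Wnt TPM over summed frizzled TPM stayed between 0.286 and 0.435 in all 12 libraries. The ratio of ligand to receptor transcripts thus moved little beside that of antagonist to receptor.

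**Figure D3:**
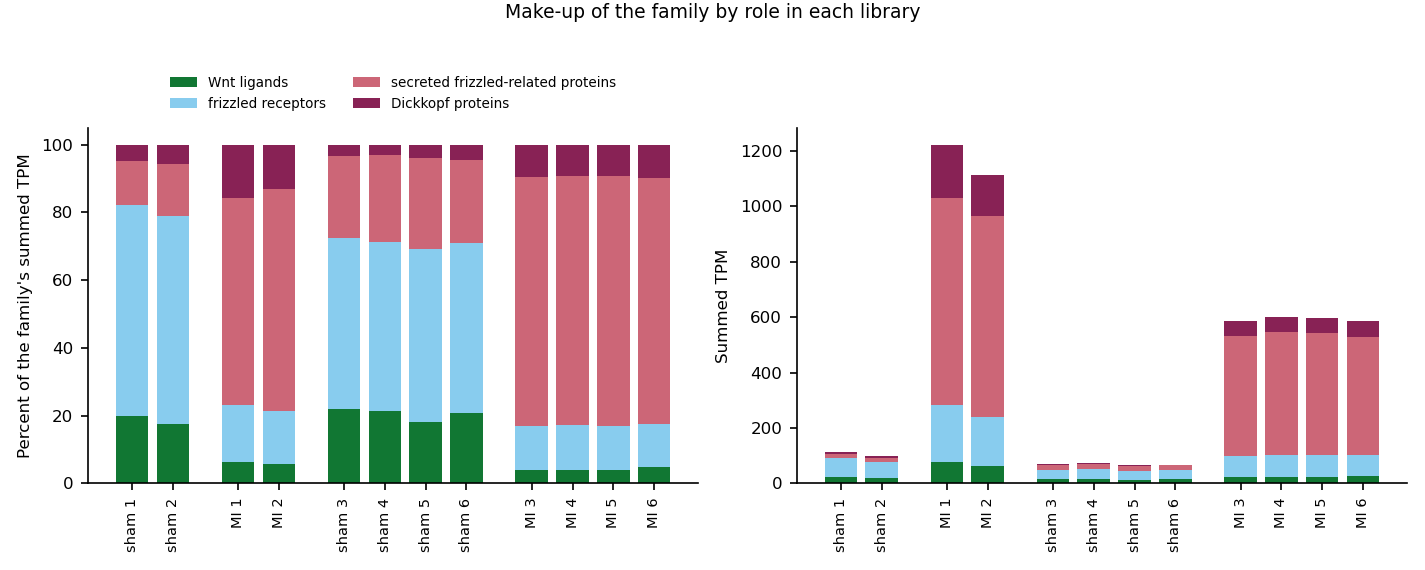
Percent of the family's summed TPM (left y axis) and summed TPM (right y axis) by role in each of the 12 libraries, stacked as Wnt ligands, frizzled receptors, secreted frizzled-related proteins and Dickkopf proteins. Antagonists take 17.9-30.7% in sham libraries and 76.8-83.1% in MI libraries.

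Within the frizzleds, Fzd4 led sham 1 and 2 with 30.2% of frizzled TPM in each, whereas Fzd6 led sham 3 to 6 with 42.7-46.6%. The sham libraries of the 2 sets thus already differed, and whether by tissue or by processing was not tested. In MI 1 and 2 Fzd2 led with 34.4% and 28.7%, and Fzd1 followed with 25.9% and 28.2%, within the spread of the pair. In MI 3 to 6 Fzd6 (22.3-23.9%) and Fzd1 (21.4-22.3%) were close together, with Fzd2 at 17.6-19.2%. In both sets Fzd1 and Fzd2 thus had larger shares, and Fzd4 and Fzd6 smaller ones, in MI than in sham.

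Among the ligands no single Wnt led throughout. By TPM, Wnt9a led sham 1 and Wnt5b led sham 2, while Wnt11 led sham 3 to 6 with 33.9-39.4% of Wnt TPM. In MI, Wnt4 led replicate 1 with 26.1%, Wnt11 led replicate 2 with 30.3%, and Wnt5b led replicates 3 to 6 with 20.8-24.8%. Wnt4 went from 3.55% ± 0.68 to 23.5% ± 3.64 in MI 1 and 2 (SD, n = 2), and from 2.03% ± 0.76 to 11.1% ± 0.56 in replicates 3 to 6 (SD, n = 4), the same direction in both sets.

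**Figure D4:**
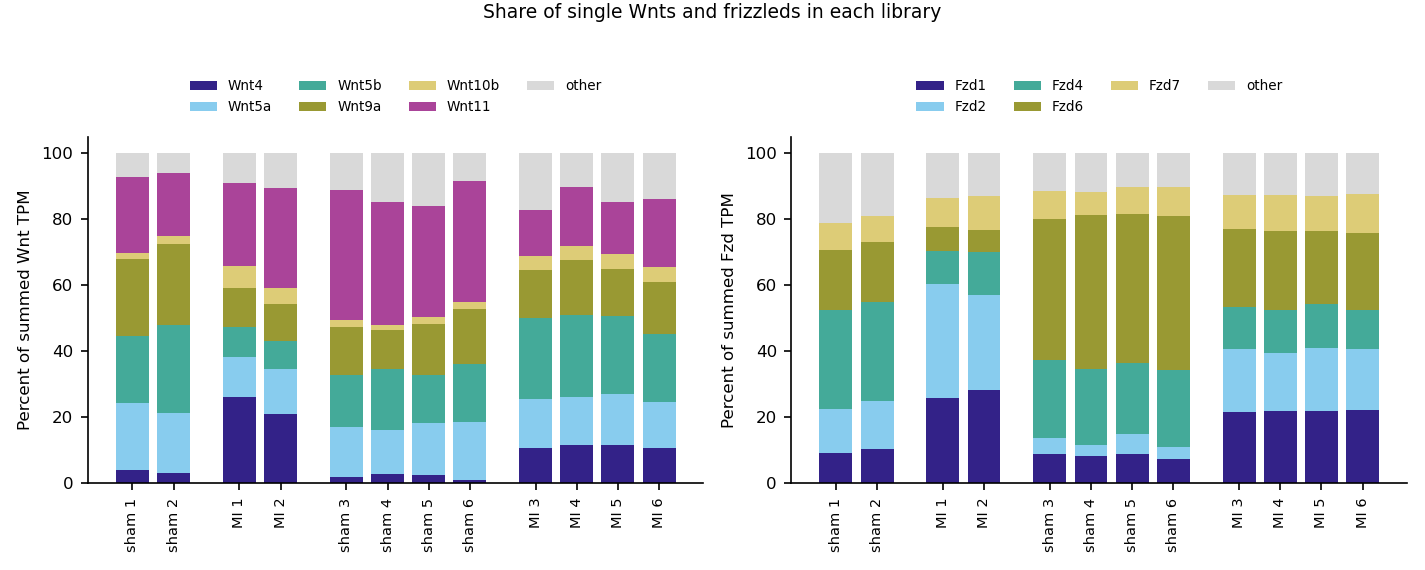
Percent of summed Wnt TPM (left) and of summed frizzled TPM (right) taken by single genes in each library, with the remaining genes in grey. Wnt4 widens in every MI library, and Fzd1 and Fzd2 widen while Fzd4 and Fzd6 narrow in both sets.

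The other genes of the pathway were followed in 8 lists, with 116 genes tested, of which 37 rose and 26 fell, against 28.1% and 29.8% of all genes. With library size alone 59 rose and 11 fell. Of 14 tested co-receptors and alternative Wnt receptors 11 rose and 0 fell. Their median was 0.84 on the log2 scale. Sdc1, a heparan sulphate proteoglycan of the cell surface, rose by a log2 fold change of 3.03, Ptk7, a polarity co-receptor, by 2.36, and the glypican Gpc6 by 2.03. Lrp5 and Lrp6 were not called (0.31 and 0.17), nor was Ryk (0.28). With library size alone all 14 genes of this list rose, these included, against 46.1% of all genes. Lrp5 and Lrp6 fall outside the rule for naming genes and were added after their values were seen.

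Of 10 tested antagonists outside the Sfrp and Dkk families, 4 rose and 3 fell (40% and 30%, against 28.1% and 29.8% of all genes). With library size alone 4 rose and 2 fell (40% and 20%, against 46.1% and 18.2% of all genes). Frzb, a secreted frizzled-related protein known also as Sfrp3, rose by a log2 fold change of 3.34, from 26.6 to 296 CPM in replicates 1 and 2 and from 19.6 to 189 CPM in replicates 3 to 6 (means). Apcdd1, a membrane-bound inhibitor, rose by 1.08 on that scale. Wif1, which binds Wnts directly, fell by 3.16, from 4.99 to 0.807 CPM and from 11.7 to 1.10 CPM. Shisa3 was not called over 12 libraries (0.16), but its sets had opposite signs. Replicates 1 and 2 gave -1.41, whereas replicates 3 to 6 gave 0.92. This difference passed in 1 form of the test (adjusted p = 0.000733 and 0.163).

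Upstream of the receptors, 7 of 9 genes of Wnt secretion were not called, 1 rose and 1 fell (11.1% each, against 28.1% and 29.8% of all genes). With library size alone 4 rose and 0 fell (44.4% and 0%, against 46.1% and 18.2% of all genes). Wls, the carrier that brings Wnts to the cell surface, rose by 1.06, Vps26a, a retromer subunit, fell by 0.80 (not called with library size alone), and Tmed2 was not called (0.19). Of 5 tested genes in the list of R-spondins and their receptors, the R-spondin Rspo3 rose by 1.91 and the receptor Lgr6 fell by 1.00, while Lgr4 was not called (-0.29).

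Inside the cell most destruction complex and TCF/LEF genes did not pass with TMM scaling. Of 21 tested genes of the destruction complex and Dishevelled, 4 rose, 3 fell and 14 were not called. Of all genes 28.1% rose and 29.8% fell. With library size alone 11 of these 21 rose and 1 fell (52.4% and 4.8%, against 46.1% and 18.2% of all genes). Nkd2 and Nkd1, inhibitors that bind Dishevelled, rose by 3.20 and 1.65, the kinase Gsk3a fell by 0.69, and beta-catenin itself, Ctnnb1, was at 534 and 522 CPM in replicates 1 and 2 and 533 and 571 CPM in replicates 3 to 6 (0.06, not called). Of 16 TCF/LEF factors and partners, 3 rose and 4 fell (18.8% and 25%), and 8 and 2 with library size alone (50% and 12.5%). Tle5 fell by 2.01 and Pygo1 by 1.02, the corepressor Tle3 rose by 1.00, and Ctnnbip1 was not called over 12 libraries (-0.34). For Ctnnbip1, replicates 1 and 2 gave -1.14, whereas replicates 3 to 6 gave 0.10. That difference between sets passed both forms of the test (adjusted p = 1.71e-06 and 0.0448).

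Of 16 tested common targets of beta-catenin signalling, 8 rose, 3 fell and 5 were not called. Over all genes 28.1% rose and 29.8% fell. With library size alone 9 of the 16 rose and 3 fell, against 46.1% and 18.2% of all genes. The median of this list was 0.74 on the log2 scale. Ccn4, a matricellular protein also known as Wisp1, rose by 5.58, from 2.23 to 131 CPM in replicates 1 and 2 and from 1.89 to 78.5 CPM in replicates 3 to 6. Nkd2 and Apcdd1 are on this list too. Axin2, often read as a direct target, was not called (-0.50, adjusted p = 0.0455 and 0.251) and was added outside the rule after its values were seen, as was the low gene Lef1, which was not tested both ways. Ccnd1 was not called over 12 libraries (-0.24), but its sets had opposite signs. Replicates 1 and 2 gave -1.10, whereas replicates 3 to 6 gave 0.22. This difference between sets passed both forms of the test (adjusted p = 2.49e-07 and 0.0259). Several of these targets are also made by activated fibroblasts, whose markers rose beside them, and the part of that shift was not tested.

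Of 32 planar cell polarity and calcium genes 8 rose and 12 fell (25% and 37.5%, against 28.1% and 29.8% of all genes). With library size alone 12 rose and 3 fell (37.5% and 9.4%, against 46.1% and 18.2% of all genes). Intu, Fuz and Prickle3, polarity genes of which the first 2 also act at the cilium, fell by 1.80, 0.79 and 0.74, of which Fuz was not called with library size alone. Rhoa was not called (0.16). The median of this list was -0.20, against 0.01 over all genes. With library size alone it was 0.21, against 0.42, so it lay below that of all genes under both scalings.

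**Figure D5:**
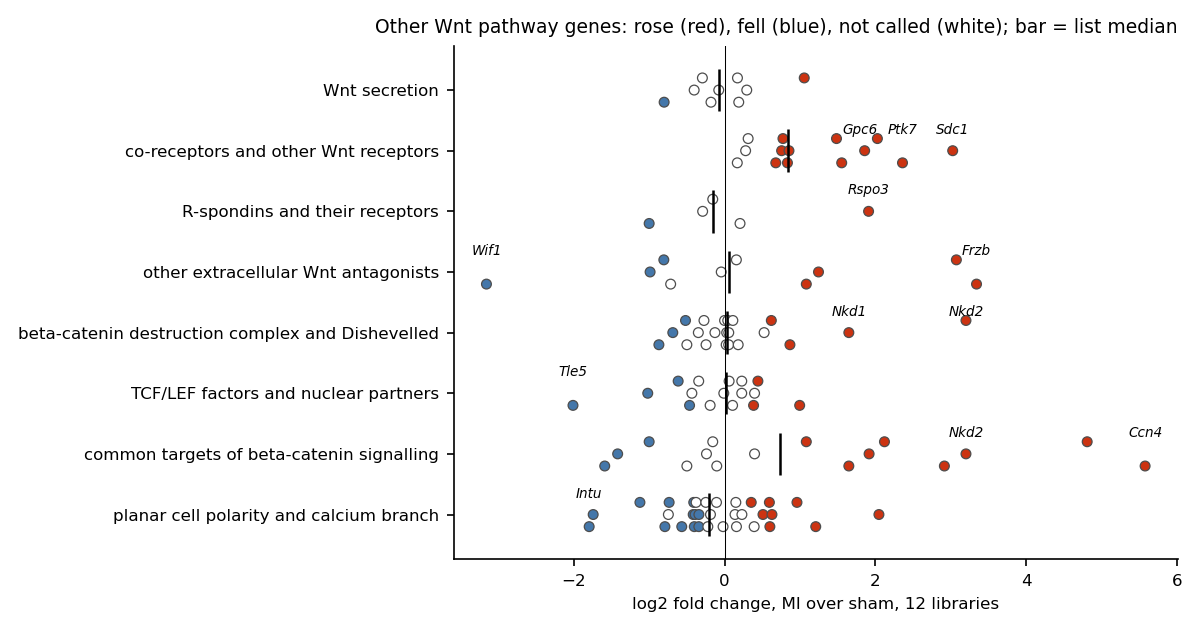
Log2 fold change over 12 libraries (x axis) of each tested gene of 8 Wnt pathway lists (y axis), red where it rose, blue where it fell, white where it was not called, with a bar at the list's median. The bars for co-receptors (0.84) and common targets (0.74) lie furthest to the right, and that for polarity genes (-0.20 with TMM scaling, 0.21 with library size alone) furthest to the left.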

How the data were processed

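Poly(A)-selected RNA of 12 left ventricles' libraries was sequenced. Per the labels, RNA extraction used Magzol and mRNA was captured on oligo(dT) beads. The submitters' processing notes name GRCm38 for all libraries and Bowtie2, RSEM and DESeq2 for replicates 3 to 6, with no versions. The authors deposited expected counts, as RSEM estimates and not normalised, beside TPM and FPKM scaled by length and library. A second deposited table holds FPKM of replicates 1 and 2 only.

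Expected counts, rounded to whole numbers, entered edgeR 4.0.16 in R 4.3.3 (TMM scaling, filterByExpr, quasi-likelihood F test, label set as covariate) on all genes, with Benjamini-Hochberg adjustment over all of them. The difference between sets was an interaction of set and group. Of 18050 genes, 425 are blank in replicates 1 and 2. CPM compare libraries within a gene, and the authors' TPM compare genes. In pairs of adjusted p-values the first is from 12 libraries and the second with replicates 3 to 6 counted once. The standard error of a log2 fold change is that value divided by the root of its F statistic. Alternatives used DESeq2 1.42.0 and limma 3.58.1 on log2(FPKM + 1) and log2(FPKM + 0.1). The tests were tested on simulated data. Intervals are exact at 95%.

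The members and lists were chosen with earlier results of these data known. Members called, called in 1 set or at 5 CPM or more in a group are given by library. From each list the 3 called genes with the smallest adjusted p and the most abundant gene not called are named. Gene positions and promoter windows are from RefSeq GRCm38.p6, and exon overlaps from GENCODE.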

Additional observations from a re-analysis of the deposited data

Results flagged for a closer look

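Sfrp1 in MI replicate 2 stood at 383 CPM, with a gap to the next of the 6 MI libraries that is large against their whole range. The threshold for such a gap is set to be passed in about 1 group in 20 of like libraries. The MI libraries, however, come from 2 sets with coefficients of variation of 0.192 and 0.0208. Without that library Sfrp1 remained called.

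The MI effect of Sfrp2 differed between the sets by -1.38 on the log2 scale (replicates 3 to 6 minus replicates 1 and 2), and that of Wnt11 by -2.51, each past the test of the difference in both its forms.

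In the deposited FPKM table of replicates 1 and 2, Wnt10a, which has no row among the counts used here, was listed at 0.05 and 0.13 FPKM in the MI libraries and at 0 in both sham libraries. The depth behind these values is unknown.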

How the results depend on the processing

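Of the 12 risen members, 10 kept their call in all 24 alternatives. Fzd2 lost it without the set covariate, and Fzd8 at an adjusted p under 0.01, without the set covariate, without sham 2 and without MI 1. Fzd4 and Fzd9 lost theirs in 9 of 24. The 2 falling members became 0 with library size alone, with limma on log2(FPKM + 1) or log2(FPKM + 0.1), at an adjusted p under 0.01 and without the set covariate, and 4 with the 12-library test alone. Leaving out each library gave 0 to 2. Pathway genes called higher went from 37 to 59 with library size alone and with both limma settings, and to 23 without the set covariate. Those called lower went from 26 to 11, 10 and 10 under those 3 scalings, 15 at an adjusted p under 0.01 and 11 without the set covariate. Leaving out each library gave 25 to 38 and 14 to 27. Within replicates 1 and 2 the 2 falling members became 1 under the same 3 scalings (1 to 3 leaving out each library), and within replicates 3 to 6 the 3 became 1. Members that differ between sets went from 2 to 9 with the 12-library test alone. Fzd4 turned to 0.0249, 0.00481 and 0.00730 with library size alone and both limma settings, and Fzd6 to 0.0236 with library size alone. Wnt11 turned from -0.10 to 0.31, 0.27 and 0.30 under those 3, to 0.20 without the set covariate, to 0.68 with replicates 3 to 6 counted once, to 1.51 in replicates 1 and 2 alone, and to between 0.0245 and 0.0911 without sham 3, MI 3, MI 4 or MI 5, with a lowest value of -0.44 without sham 2. Wnt5b turned to -0.27 in replicates 1 and 2 alone, a setting added after seeing the data. With library size alone the median of all genes is 0.42, against 0.01 with TMM. The cause of the other changes was not tested. Same-numbered sham and MI libraries were not paired (correlations -0.05 to 0.06), and with a replicate block in place of the set 12 members were called higher and 2 lower, as without it, with 37 and 23 pathway genes. Depth limits the 11 members too low to test.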

Other observations

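In the second deposited table, FPKM of replicates 1 and 2 alone, 32 members could be set beside the 12-library table. All 12 risen members had both MI libraries above both sham libraries there. Of the 2 fallen members, Fzd9 was at 3.34 and 2.99 FPKM in sham and 1.77 and 0.95 FPKM in MI. Fzd4 overlapped, at 8.12 and 7.02 FPKM in sham and 5.61 and 7.03 FPKM in MI. In the 12-library table Fzd4 was at 11.91 and 10.84 FPKM and at 10.3 and 11.35 FPKM in these libraries. The second table holds the same libraries, so this repeats the measurement and adds no replicate. Mean FPKM went from 1.71 to 271 for Sfrp2, from 3.15 to 80.5 for Dkk3, from 6.04 to 87.3 for Sfrp1 and from 0.40 to 8.48 for Wnt4.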
